A study of Mus musculus with 5 samples.

Results

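The 10 genes described here encode the ligands, a receptor, SMAD proteins and feedback inhibitors of transforming growth factor beta (TGF-beta) signalling. They are the ligand genes Tgfb1, Tgfb2 and Tgfb3, the receptor gene Tgfbr1, the SMAD genes Smad3, Smad6 and Smad7, the co-repressor genes Ski and Skil, and the feedback gene Pmepa1. They were chosen by name, with earlier results of these data known. Array probes were assigned to them through the RefSeq accession that each probe carries. All 10 were found, out of 20014 named genes on the array, with 15 of 55681 probes. Genes with several probes are represented by the brightest probe, and 5 of the 10 have a second probe, which is also reported.

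The cells were mouse tumour cells from soft tissue sarcomas of animals carrying a doxycycline-inducible allele of EWS/ATF1, the fusion that drives clear cell sarcoma, in mice of mixed ICR, 129 and C57/BL6 descent. There was 1 array for each of 5 groups: a low dose of doxycycline for 3 h, a high dose for 3 h, a high dose for 48 h, a control at 3 h and a control at 48 h. All groups, controls included, carry the inducible allele. The doxycycline concentrations, what the control cultures received, the promoter that drives the inducer, the age of the animals, and which tumour line gave each array are unknown here. Arrays may therefore also differ because they come from different lines, which cannot be told apart from the treatment.

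In TGF-beta signalling, a secreted ligand brings together type I and type II receptor kinases, and the type I receptor, encoded by Tgfbr1, phosphorylates SMAD2 and SMAD3. These enter the nucleus with SMAD4 and regulate target genes. SMAD6 and SMAD7 are inhibitory SMADs that block the receptors or the SMAD complex, SKI and SKIL (also called SnoN) are nuclear co-repressors of SMAD target genes, and PMEPA1 is a membrane protein that holds SMAD2 and SMAD3 back from the receptor. Smad7, Skil and Pmepa1 are themselves induced by TGF-beta in many cell types and so act as negative feedback. In mesenchymal cells and their tumours the pathway is best known for its control of matrix, contractile and growth arrest genes.

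Promoters, taken as 250 bases before to 50 bases after the gene start, were available from RefSeq (build GRCm38.p6) for 6 of the 10 genes and not for Pmepa1, Skil, Smad7 and Tgfb3. They are shown for 3 genes because they let the binding motif of ATF1, which supplies the DNA-binding part of the fusion, and that of SMADs be looked up beside the expression values below. Letters in capitals mark a match to a searched motif on either strand. The Tgfb2 promoter is at chr1:186705940-186706239 on the minus strand, that of Smad6 at chr9:64022010-64022309 on the minus strand and that of Tgfb1 at chr7:25686752-25687051 on the plus strand.
Tgfb2: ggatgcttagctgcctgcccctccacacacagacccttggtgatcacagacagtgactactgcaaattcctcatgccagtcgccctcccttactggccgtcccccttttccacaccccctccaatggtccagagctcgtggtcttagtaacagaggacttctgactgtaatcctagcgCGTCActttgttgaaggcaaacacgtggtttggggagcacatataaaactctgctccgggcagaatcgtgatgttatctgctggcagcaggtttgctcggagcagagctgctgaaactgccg
Smad6: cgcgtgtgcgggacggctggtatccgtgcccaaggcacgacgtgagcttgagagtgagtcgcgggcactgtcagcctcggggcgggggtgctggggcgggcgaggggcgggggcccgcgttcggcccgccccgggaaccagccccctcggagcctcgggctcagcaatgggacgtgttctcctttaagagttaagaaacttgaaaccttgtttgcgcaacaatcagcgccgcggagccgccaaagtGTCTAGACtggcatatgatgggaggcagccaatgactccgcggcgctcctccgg
Tgfb1: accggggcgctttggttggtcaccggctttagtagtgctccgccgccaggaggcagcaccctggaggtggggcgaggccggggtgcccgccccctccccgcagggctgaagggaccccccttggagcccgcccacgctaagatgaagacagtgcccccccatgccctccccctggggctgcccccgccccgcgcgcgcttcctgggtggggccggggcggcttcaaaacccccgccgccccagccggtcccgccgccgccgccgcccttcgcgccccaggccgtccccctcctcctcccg
The full cAMP response element TGACGTCA, to which ATF1 binds, was in 0 of 7 member promoters (Tgfbr1 has 2) and in 1.79% of all 32851 promoters. Its core TGACG, which the full element also contains, was found in the Tgfb2 promoter alone among the 7, read as CGTCA on the gene strand from base -72 to base -68, and in 20.8% of all promoters. The AP-1 site TGANTCA was in 0 of 7, against 7.81% of all promoters. The palindromic SMAD element GTCTAGAC was present in the Smad6 promoter, from base -4 to base 4 around the gene start, and in 0.213% of all promoters. No searched motif was in the Tgfb1, Ski, Smad3 or Tgfbr1 windows. A match is a run of letters and does not show that a factor bound there.

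Levels are log2 processed signals minus the 75th percentile of the same array, so a level of 0 is the 75th percentile and a difference of 1 is 2-fold. That percentile was a signal of 585.5 on the low-dose and 556.4 on the high-dose array at 3 h and 419.5 on the high-dose array at 48 h, against 725.3 and 649.2 on the 3 h and 48 h control arrays. Between 55.5% and 60% of all probes were above background on each array, and 0 spots were saturated. Of the 15 member probes, 13 were above background on all 5 arrays, and every gene's brightest probe was among them. A single slide held the 5 arrays, with 1 scan. With 1 array a group there is no replicate check. Error is therefore technical only: the scanner's error for a log2 difference was between 0.204 and 0.219 for genes whose probe has 1 spot, and between 0.0645 and 0.0703 for Tgfb1, Tgfb3 and Skil, whose probes were spotted 10 times.

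The 3 ligand genes went different ways. Tgfb3, the ligand with the widest range over the arrays, had a level of 5.47 on the low-dose 3 h array, 4.83 on the high-dose 3 h array and 1.85 on the high-dose 48 h array, against 4.40 and 4.03 on the 3 h and 48 h control arrays. It was thus high on both 3 h doxycycline arrays, lower on both controls, and by far the lowest after 48 h of the high dose. At the low dose it was 2.10-fold higher than on the 3 h control array (log2 difference 1.07) and 2.70-fold higher than on the 48 h control array (1.43). At the high dose for 3 h the differences were 0.44 and 0.80, under 2-fold. At 48 h of the high dose Tgfb3 was 4.55-fold lower than in the 48 h control (-2.19) and 5.85-fold lower than in the 3 h control (-2.55). The control arrays differed from each other by -0.36 (48 h minus 3 h).

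Tgfb2 had levels of -0.89 and -0.64 at the low and high dose at 3 h and -2.76 at the high dose at 48 h, against -0.21 on the 3 h control and -0.47 on the 48 h control array. All 3 doxycycline arrays therefore lay below both controls, by little at 3 h and by far more at 48 h. The 3 h differences were between -0.69 and -0.17, and the 48 h high-dose array was 4.88-fold lower than the 48 h control (-2.29) and 5.88-fold lower than the 3 h control (-2.56). A second Tgfb2 probe gave the same order, with levels of -2.20, -2.12 and -5.15 on the doxycycline arrays, against -1.49 and -1.61 on the controls. On the 48 h high-dose array that probe was not well above background, so the difference is a bound: at least 11.7-fold lower than the 48 h control and at least 12.6-fold lower than the 3 h control, taking the higher of its own signal and the lowest signal above background on the dim array. The Tgfb2 promoter is the one shown above with the core TGACG.

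Tgfb1, the ligand gene best known for its roles in immune regulation and fibrosis, had levels of -0.54, -0.48 and -0.15 on the low-dose 3 h, high-dose 3 h and high-dose 48 h arrays, against -0.97 and -0.77 on the 3 h and 48 h controls. The 3 doxycycline arrays lay above both controls, but each difference was under 2-fold, the highest being 0.82 for 48 h of the high dose against the 3 h control and 0.62 against the 48 h control. Before scaling, its spots overlapped between arrays, with processed signals of 359.3 to 407.9 after 48 h of the high dose, against 336.4 to 399.5 in the 3 h control and 355.6 to 404.1 in the 48 h control. The order of Tgfb1 levels thus follows the arrays' 75th percentiles, which were lower on the doxycycline arrays. The unscaled Tgfb3 signals were 1387 to 1615 after 48 h of the high dose, against 13950 to 15980 in the 3 h control and 9396 to 11220 in the 48 h control, so they did not overlap there. After 3 h of the high dose they were 14410 to 16580 and overlapped those of the 3 h control.

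**Figure D1:**
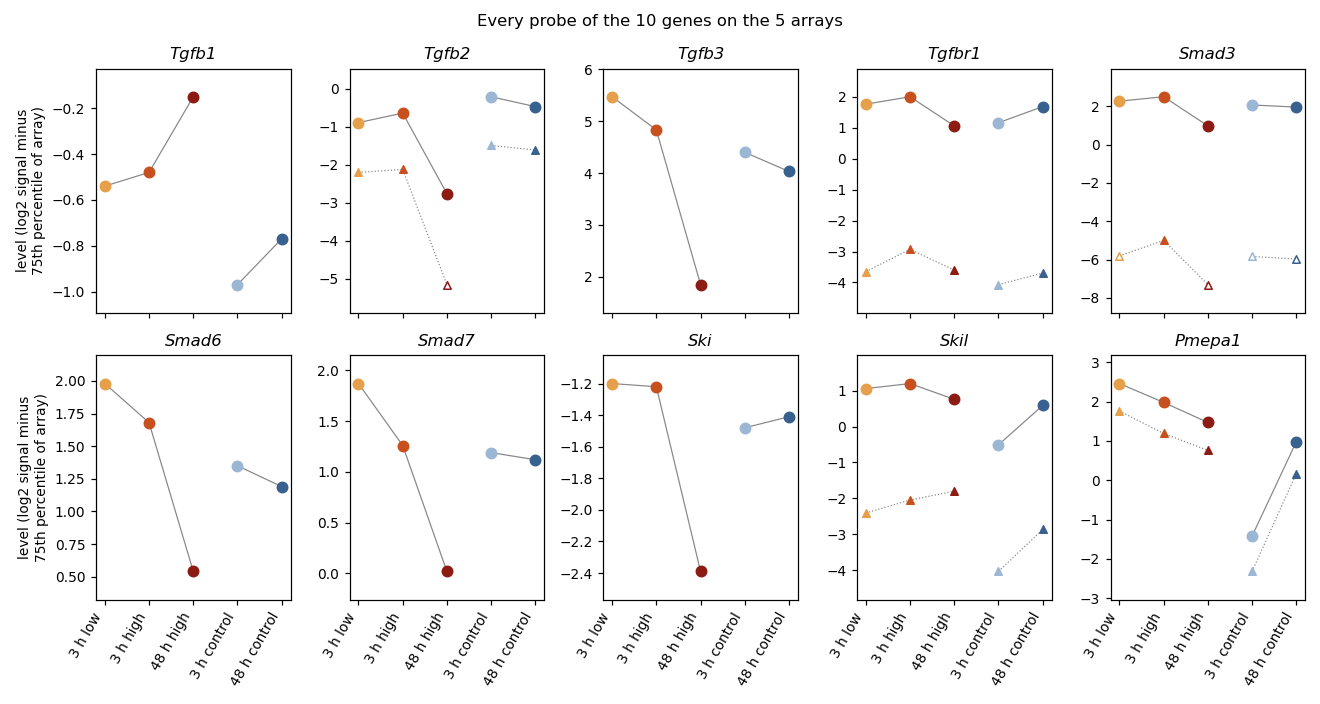
Each panel plots the level of 1 gene (vertical axis, log2 signal minus the array's 75th percentile, with its own scale) on the low-dose 3 h, high-dose 3 h, high-dose 48 h, 3 h control and 48 h control arrays. Circles are the brightest probe, triangles a second probe, open symbols are not above background, and lines join arrays of a kind only to guide the eye. Tgfb3 drops to 1.85 on the 48 h high-dose array, and the 3 h control array is the lowest for Pmepa1, at -1.42.

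**Figure D2:**
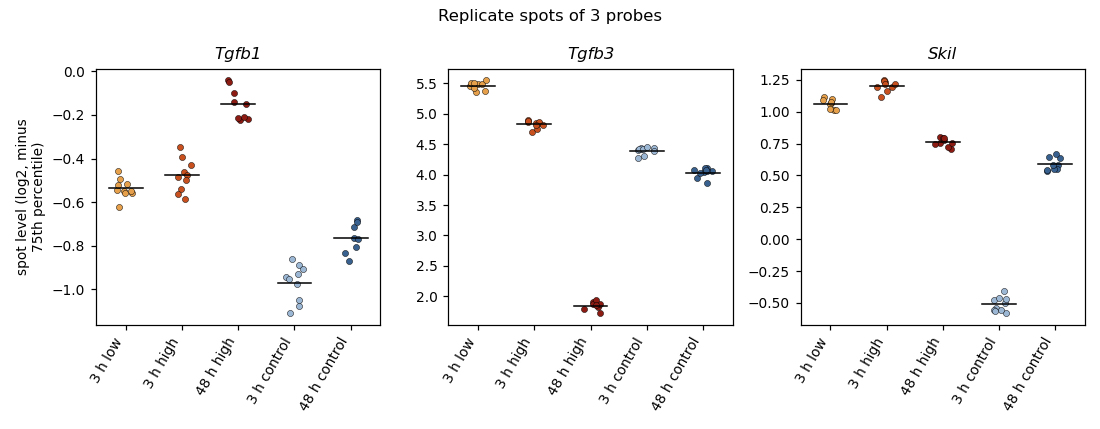
Spot levels (vertical axis, log2 minus the array's 75th percentile) of the Tgfb1, Tgfb3 and Skil probes that are printed 10 times per array, with 8 to 10 spots kept after removal of outlier spots, by array on the horizontal axis. Black bars are means. Spots of an array scatter with an SD of at most 0.0831, and the Tgfb3 spots of the 48 h high-dose array, between 1.72 and 1.95, lie below every spot of the other 4 arrays.

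The largest differences of the receptor and SMAD genes were smaller than those of Tgfb2 and Tgfb3. Tgfbr1, the type I receptor gene, had levels of 1.76, 2.0 and 1.06 on the low-dose 3 h, high-dose 3 h and high-dose 48 h arrays, against 1.16 in the 3 h control and 1.68 in the 48 h control. The doxycycline and control arrays overlapped and no difference from a control reached 2-fold, the largest being 0.84 for the high dose at 3 h against the 3 h control. A second, dimmer Tgfbr1 probe passed 2-fold in that comparison, at 1.14, with 0.77 against the 48 h control.

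Smad3, which encodes the SMAD that carries the receptor's signal to DNA, had levels of 2.27, 2.50 and 0.98 on the low-dose 3 h, high-dose 3 h and high-dose 48 h arrays, against 2.07 and 1.96 in the 3 h and 48 h controls. It was highest on the 3 h doxycycline arrays by a small margin and lowest at 48 h, where the difference was -0.98 from the 48 h control (1.98-fold lower) and -1.09 from the 3 h control. The second Smad3 probe was above background only on the 3 h high-dose array and gives no usable difference.

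Smad7, an inhibitory SMAD gene of the feedback loop, had levels of 1.87, 1.26 and 0.02 on the low-dose 3 h, high-dose 3 h and high-dose 48 h arrays, against 1.19 and 1.12 in the 3 h and 48 h controls. The low-dose array was above the controls by 0.68 and 0.75, the 3 h high-dose array was within 0.14 of both, and the 48 h high-dose array was 2.14-fold lower than the 48 h control (-1.10) and 2.25-fold lower than the 3 h control (-1.17). Smad6, the other inhibitory SMAD gene, whose promoter holds the SMAD element shown above, had levels of 1.98, 1.68 and 0.54, against 1.35 and 1.19. Its order over the arrays was that of Smad7, with smaller differences at 48 h. The low dose differed by 0.64 from the 3 h control and by 0.80 from the 48 h control, the high dose at 3 h by 0.33 and 0.49, and the high dose at 48 h by -0.81 and -0.65.

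Among the feedback and co-repressor genes, Pmepa1 had the largest differences of the 10 genes, and most of its size came from the 3 h control array. Its levels were 2.46, 1.98 and 1.47 on the low-dose 3 h, high-dose 3 h and high-dose 48 h arrays, against -1.42 in the 3 h control and 0.98 in the 48 h control. All 3 doxycycline arrays were above both controls, but the control arrays themselves lay 2.40 apart. Against the 3 h control Pmepa1 was 14.8-fold higher at the low dose (3.89), 10.6-fold higher at the high dose at 3 h (3.40) and 7.41-fold higher after 48 h of the high dose (2.89). Against the 48 h control the same values were 2.80-fold (1.49), 2.01-fold (1.01) and 1.41-fold (0.49). The value of 0.49 depends on scaling the arrays, whose 75th percentiles were 419.5 at 48 h of the high dose and 649.2 in the 48 h control. The second Pmepa1 probe gave 4.08, 3.51 and 3.08 against the 3 h control and 1.59, 1.02 and 0.59 against the 48 h control, so both probes show the gap between the controls.

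Skil, the co-repressor gene that TGF-beta induces, had levels of 1.06, 1.20 and 0.76 on the low-dose 3 h, high-dose 3 h and high-dose 48 h arrays, against -0.51 and 0.59 in the 3 h and 48 h controls. Like Pmepa1 it was above both controls on every doxycycline array and low on the 3 h control array alone. Differences from the 3 h control were 1.57, 1.71 and 1.27, while those from the 48 h control were 0.47, 0.62 and 0.17, all under 2-fold, and the controls lay 1.10 apart. Before scaling, the Skil spots read 686.0 to 731.6 after 48 h of the high dose, below the 942.3 to 1030 of the 48 h control, so the small difference of 0.17 depends on scaling the arrays at all. It was between 0.11 and 0.18 for the same probe under the other scalings and signals tried. The second Skil probe gave 1.63 and 1.99 at 3 h against the 3 h control, but 1.07 in place of 0.17 for the high dose against the control at 48 h. Ski, the related co-repressor gene, followed the SMAD genes instead, with levels of -1.20, -1.22 and -2.39, against -1.48 and -1.41. It was within 0.28 of the controls at 3 h and lower by 0.98 than the 48 h control and by 0.91 than the 3 h control after 48 h of the high dose.

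**Figure D3:**
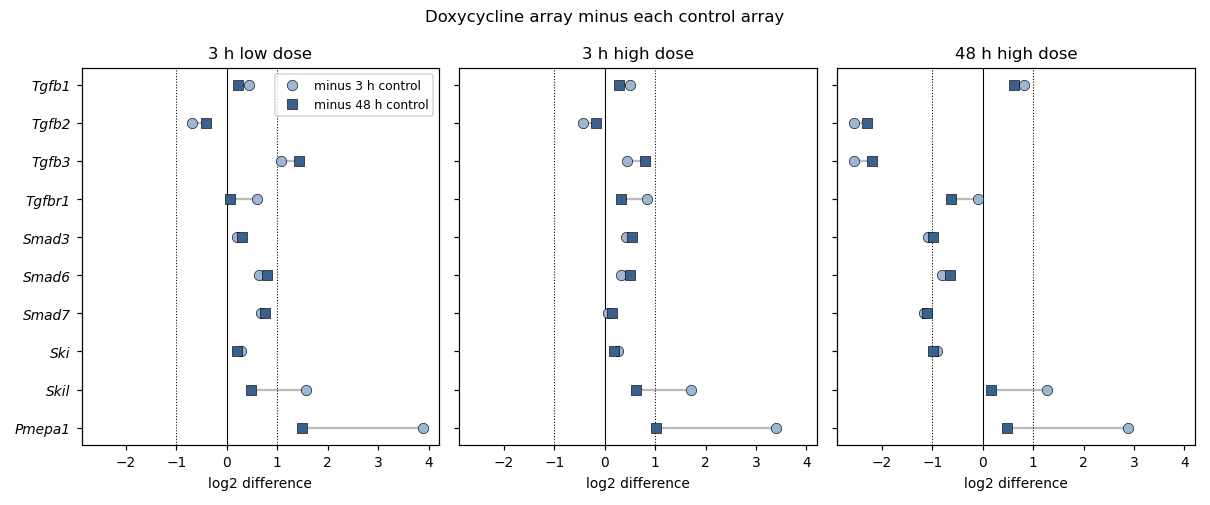
Log2 difference (horizontal axis) of each doxycycline array from the 3 h control array (circles) and from the 48 h control array (squares), for the brightest probe of each of the 10 genes, with dotted lines at 2-fold. Long grey bars show where the control arrays disagree, as for Pmepa1 (2.40) and Skil (1.10). After 48 h of the high dose Tgfb2, Tgfb3 and Smad7 lie beyond 2-fold below both controls.

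Counted together, the low dose at 3 h had 3 of 10 genes at 2-fold or more above the 3 h control (Pmepa1, Skil and Tgfb3) and 0 below. Of 14057 genes measured on both arrays 1.37% reached 2-fold, 0.79% higher and 0.583% lower. Against the 48 h control 2 were higher (Pmepa1 and Tgfb3) and 0 lower, beside 5.35% of all genes, 2.11% higher and 3.24% lower. The high dose at 3 h had 2 genes higher than the 3 h control (Pmepa1 and Skil) and 0 lower, beside 3.3% of 14000 genes, 1.85% higher and 1.45% lower. Against the 48 h control 1 was higher (Pmepa1) and 0 lower, beside 5.06% of all genes, 1.96% higher and 3.09% lower. At both doses 9 of 10 differences were above 0 against either control, Tgfb2 being the exception. The share of all genes above 0 is not given. Within scanner error were Smad7 at the high dose (0.07 and 0.14). So were Ski at the high dose (0.19) and Tgfbr1 at the low dose (0.07) against the 48 h control. Signs of small differences also depend on scaling. The 75th percentiles were 585.5 and 556.4 at the low and high dose, against 725.3 and 649.2 in the controls. The median over the 10 genes was 0.62 against the 3 h control and 0.39 against the 48 h control for the low dose, and 0.43 and 0.40 for the high dose, where the median of all measured genes lay between -0.01 and 0.02. These comparisons share control arrays, so they are not independent of each other. The 10 genes were chosen with earlier results of these data known, so their counts beside all genes are description only. Between the doses at 3 h, high minus low, 0 of 10 genes reached 2-fold, beside 2.18% of all genes, 1.27% higher and 0.913% lower, and the lowest values were those of Tgfb3 at -0.63 and Smad7 at -0.61.

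After 48 h of the high dose the balance was the other way. Against the 48 h control 3 genes were at 2-fold or more below (Tgfb2, Tgfb3 and Smad7) and 0 above, in a comparison where 20.0% of 13735 genes reached 2-fold, 10.1% lower and 9.94% higher. Against the 3 h control 4 were lower (those 3 and Smad3) and 2 higher (Pmepa1 and Skil), beside 18.3% of all genes, 8.84% lower and 9.44% higher, but this comparison also spans the times. The median over the 10 genes was -0.82 and -0.86, against 0.05 and 0.04 for all measured genes. The 48 h high-dose array was the lowest of the 5 arrays for 7 of the 10 genes, against 34.9% of 13466 genes above background on every array. For the other 3 genes, Pmepa1, Skil and Tgfb1, the 3 h control array was the lowest, which held for 15.1% of all those genes. Of the 7, Tgfbr1 was lower than in the 3 h control by -0.09 only, within its scanner error of 0.204. Its second probe was lowest in the 3 h control, at -4.07, against -3.6 after 48 h of the high dose. Between the high-dose arrays, 48 h minus 3 h, 6 genes were lower at 2-fold and 0 higher, beside 17.5% of all genes, 8.37% lower and 9.17% higher. The extremes were Tgfb3 at -2.98 and Tgfb1 at 0.33.

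The control arrays set the scale for these values. The 48 h control was at 2-fold above the 3 h control for 2 of 10 genes, Pmepa1 and Skil, and below for 0, beside 3.87% of 14013 genes, 2.5% higher and 1.36% lower. For the other 8 genes the controls differed by between -0.36 and 0.52. All 3 doxycycline arrays lay above both controls for Pmepa1, Skil and Tgfb1, beside 14.1% of all genes, and below both for Tgfb2, beside 11.9%. For the brightest probes of Pmepa1, Skil and Tgfb1 the high-dose difference from the control at 48 h (0.49, 0.17 and 0.62) depends on scaling. The same holds at 3 h for small differences, among them Ski (0.26 and 0.19) and Smad7 (0.07 and 0.14) at the high dose. Those values are against the 3 h and 48 h controls. The only test was a limma fit on the 4 arrays that are control or high-dose, in which time and dose each had a term. It called 0 of the 10 genes (Benjamini-Hochberg adjusted p between 0.884 and 0.961) and 0.0% of 14595 genes, of which 504, or 3.45%, had an unadjusted p under 0.05, with 0 of the 10 genes among them. Its largest estimates were 1.95 (SE 0.774) for Pmepa1 and -1.36 (SE 0.555) for Tgfb2. That fit counts a change of the high-dose difference between the times as error. The high-dose difference at 48 h minus that at 3 h was -2.91 for Pmepa1, -2.62 for Tgfb3 and -1.85 for Tgfb2.

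**Figure D4:**
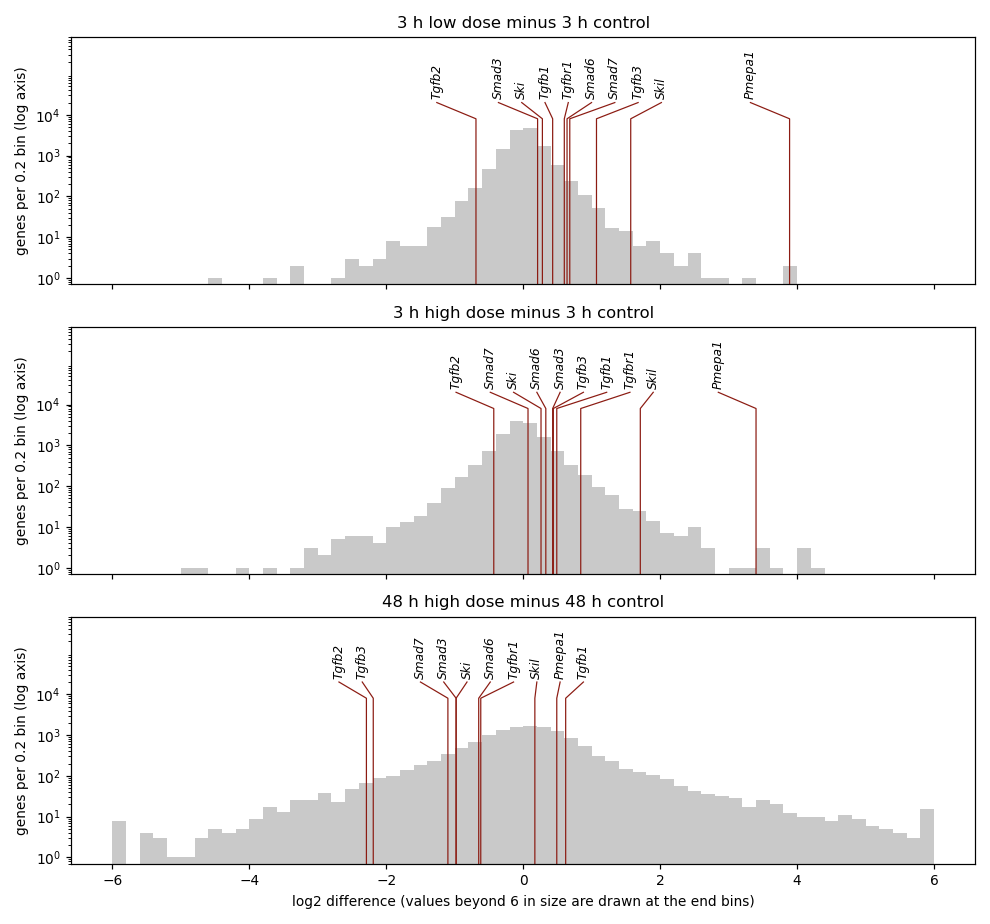
Number of genes (vertical log axis) by log2 difference (horizontal axis, bins of 0.2) for the low dose and the high dose at 3 h, each minus the 3 h control, and for the high dose minus the control at 48 h. Red lines mark the 10 genes, and values beyond 6 in size are drawn in the end bins. At 48 h the distribution of all genes is wide, with 10.1% at 2-fold lower, and Tgfb2 (-2.29) and Tgfb3 (-2.19) lie in its lower part, while at 3 h Pmepa1 (3.89 and 3.40) lies at the upper edge.

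Other genes of the pathway were counted in 5 lists by their brightest probe, at 2-fold against both controls in the same direction. These lists, too, were chosen with earlier results of these data known. For all genes the shares were 0.437% higher and 0.208% lower for the low dose, 0.832% and 0.445% for 3 h of the high dose, and 7.41% and 7.08% for 48 h of it. In the list of further receptors and SMADs, 8 of 9 genes were measured, with 0 higher and 0 lower at 3 h. At 48 h 1 was lower, Tgfbr3, the co-receptor gene that presents the Tgfb2 ligand, with levels of 1.56, 1.71 and 0.08 on the low-dose 3 h, high-dose 3 h and high-dose 48 h arrays, against 2.09 and 2.61 in the 3 h and 48 h controls. The type II receptor gene Tgfbr2 was lower than the 48 h control by 1.15 and than the 3 h control by 0.78, so it passed against 1 control only. In the list of ligand storage and activation, 10 of 12 genes were measured. Thbs1, encoding thrombospondin, which can activate latent TGF-beta, was higher at the low dose (1.89 and 1.94 against the 3 h and 48 h controls) and lower after 48 h of the high dose (-4.21 and -4.16). Fbn1, the fibrillin gene of the microfibrils that store the latent ligands, was lower at 48 h by 1.66 and 1.68. By their brightest probes, none of the 12 SMAD cofactor and degradation genes passed in either direction on any array. A second probe of Nedd4l, a ubiquitin ligase gene, did pass after 48 h of the high dose, at -1.94 against the 3 h control and -1.56 against the 48 h control, where the brightest probe was at -0.87 and -0.58. A second probe of Tgif2, a co-repressor gene, was above background on the 48 h high-dose array only, at a level of -0.75. Among the brightest probes the largest mean difference from the controls was that of Sik1, a kinase gene that CREB induces, after 48 h of the high dose, at 0.85 against the 3 h control and 1.30 against the 48 h control.

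The activin list, of relatives that signal through the same SMADs, had 8 of 9 genes measured and 0 passing at 3 h. After 48 h of the high dose 3 were higher and 1 lower. Inhbb, an activin subunit gene, had a level of 5.36 there, against 2.42 and 2.96 in the 3 h and 48 h controls, and Inhba, the other activin subunit gene, 1.07 against -0.04 and -0.31. Fst, encoding the activin antagonist follistatin, was at 6.58 against 5.19 and 3.96, with the controls 1.23 apart. The activin receptor gene Acvr2a was lower, at -1.91 against -0.54 and -0.32.

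In the list of 24 TGF-beta target genes, all measured, 3 were higher and 0 lower at the low dose, 1 higher and 0 lower at the high dose at 3 h, and 3 higher and 7 lower after 48 h of the high dose. Against the 3 h control alone the low-dose count was 3 higher and 0 lower, and against the 48 h control alone 5 and 1. For the high dose at 3 h the counts were 2 and 0 against the 3 h control and 4 and 2 against the 48 h control. Ccn2, encoding a matrix-associated growth factor, passed on every doxycycline array, with levels of 5.42, 4.68 and 4.36, against 2.84 and 3.23. Tagln, a contractile gene, passed at the low dose, at 1.47 against the 3 h control and 3.20 against the 48 h control. At 48 h the lower genes were Col1a1, Col1a2, Snai2, Cdkn2b, Postn, Id1 and Id3, among which the growth inhibitor gene Cdkn2b was lower by 3.71 than the 3 h control and by 4.0 than the 48 h control. The higher ones were Ccn2, Timp3, a metalloproteinase inhibitor gene, and Hmga2, a chromatin protein gene. The median difference of the list from the mean of the controls was 0.22, 0.20 and -0.55 on the 3 arrays, beside 0.02, -0.01 and 0.04 for all genes.

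**Figure D5:**
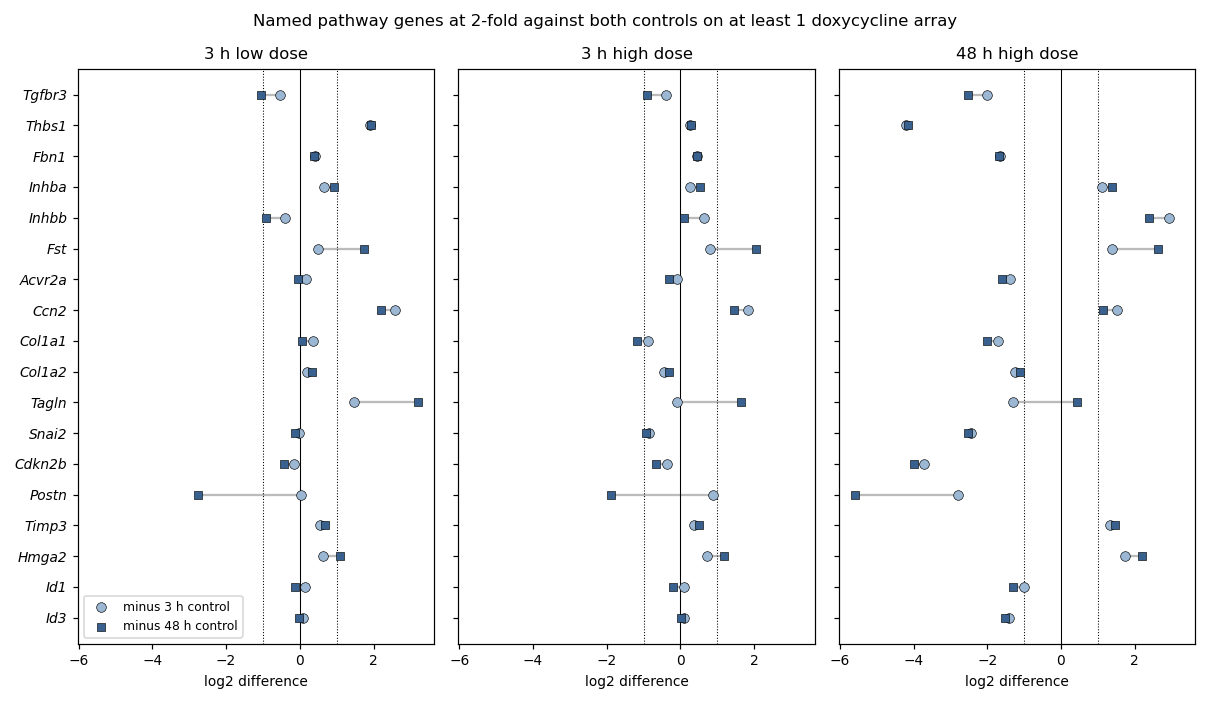
Log2 difference (horizontal axis) of each doxycycline array from the 3 h control (circles) and the 48 h control (squares) for the pathway genes named in the text at 2-fold against both controls on at least 1 doxycycline array, with dotted lines at 2-fold. Most of them pass at 48 h only, as Thbs1 does at -4.21 and -4.16 in the lower direction after passing in the higher direction at the low dose.

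Profiles over the 5 arrays were compared with those of 13465 other genes above background on every array. Likeness was the root mean square distance between profiles after each was centred on its own mean. Among the 3 genes nearest to Pmepa1 were Purb and Ptpru, at distances of 0.496 and 0.526 on the log2 scale, for a Pmepa1 range of 3.89. For Tgfb3 the nearest were Disp3 (0.151), Marchf4 (0.160) and Cnn2 (0.160), a calponin gene of the actin cytoskeleton, and for Tgfb2 they were Sned1 (0.147), Lrrc4c (0.149) and Mapkapk3 (0.161). Skil was nearest to Zfp157 (0.168), Samd4 (0.182) and Synm (0.185). The SMAD genes and Ski had closer neighbours, among them Stxbp5l for Smad7 (0.0572), Tram2 for Smad6 (0.0650), Phlpp1 for Smad3 (0.0630) and Mbnl2 for Ski (0.00953). Distances were not divided by the range of a gene, so genes of different range do not compare directly. Ranges were 1.85 for Smad7, 1.44 for Smad6, 1.52 for Smad3 and 1.19 for Ski. Those of Skil, Tgfb2 and Tgfb3 were 1.71, 2.56 and 3.62.

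Markers of other cells differed between the arrays too. Of 13 macrophage genes, 11, 7 and 12 were above background on the low-dose 3 h, high-dose 3 h and high-dose 48 h arrays, against 10 in the 3 h control and 7 in the 48 h control. Their summed signal, in units of the 75th percentile, was 8.75, 7.36 and 48.8, against 9.40 and 8.79. Csf1r, a macrophage growth factor receptor gene, made up most of that sum on every array, with 5.75, 6.26 and 39.4, against 5.86 and 7.42. Without Csf1r the sum was 3.01, 1.09 and 9.41, against 3.54 and 1.37. The other Csf1r probes differed from each other after 48 h of the high dose, at 0.55 and 3.38 against the 48 h control. The defining genes Tyrobp, Lyz2 and C1qc were below background on the 3 h high-dose and 48 h control arrays. The macrophage sum, with or without Csf1r, was thus highest on the array where the scaled Tgfb1 level was highest and Tgfb2, Tgfb3 and Smad7 were lowest. Before scaling, the Tgfb1 spots of that array overlapped those of both controls, as given above. The part of macrophage signal in the values of these genes was not tested.

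Of 10 mesenchymal and neural crest genes, 10, 10 and 9 were above background on the low-dose 3 h, high-dose 3 h and high-dose 48 h arrays, against 10 in each control. Their summed signal was 137, 138 and 68.0, against 128 and 128, and without Vim, the intermediate filament gene that made up most of it, 31.2, 32.4 and 16.1, against 35.6 and 35.9. The genes did not all go one way at 48 h of the high dose: Col3a1, Pdgfrb, Pdgfra, Twist1 and Ngfr were at 2-fold or more below both controls, while the neural crest regulator Sox10 differed by 0.12 from the 3 h control and -0.21 from the 48 h control, Sox9 by 0.47 and 0.69 and the melanocyte regulator Mitf by 0.74 and 0.33. Vim differed by -0.84 from the 3 h control and -0.82 from the 48 h control. Cd34 was below background after 48 h of the high dose, at a level of -7.29, against -2.52 and -3.83 in the 3 h and 48 h controls. In these bulk samples fewer cells of a type and less RNA per cell cannot be told apart. Of 7 endothelial and epithelial genes, Pecam1 and Kdr were above background on all 5 arrays and Cdh5, Krt8 and Cdh1 on none. Epcam was above background on the 3 h high-dose array only, at a level of -2.32, and Krt18 on that array and the 48 h control array.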

How the data were processed

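RNA from 5 cultures was labelled with Cy3 and hybridised to 1-colour Agilent arrays, per the labels' protocols. The authors deposited linear spot intensities, read with Agilent Feature Extraction 10.7.3.1 per the submitters' processing notes. Per the file headers the processed signal was background-subtracted and detrended within each array, with no scaling between arrays; yes/no marks of the software came with it. The deposited value table holds the same intensities (99.4% to 99.5% of probes within 0.001 log2).

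Control and outlier spots were left out, the rest were taken to log2, the array's 75th percentile was subtracted and spots of a probe averaged. A share of 0.5 or more of a probe's spots had to be marked above background for the probe to count as such. Accessions were named through RefSeq's GRCm38.p6 gene table, without coordinates, since the headers name an older build: 26407 probes had 1 symbol, 0 several and 29274 none. A gene was called at 2-fold if above background on both arrays. limma 3.58.1 in R 4.3.3 fitted the 4 control and high-dose arrays (eBayes with trend, Benjamini-Hochberg at 0.05, genes above background on at least 2 arrays). The rule and the fit were run on simulated data as a check of the code only. Those data had independent noise and equal effects at both times, unlike these arrays.

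All 10 genes and every probe are reported. Other pathway genes are named if at 2-fold against both controls, plus up to 3 a list, and the 3 nearest profiles were found for members with a range of at least 1; 2 genes that these rules pick are not reported here. The members and lists were chosen with earlier results of these data known. Alternatives were the scaling, signal, filter, probe, threshold and fit.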

Additional observations from a re-analysis of the deposited data

Results flagged for a closer look

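The high-dose difference from the control of the same time was above 0 at 3 h and below 0 at 48 h for 6 of the 10 genes, with 1 array on each side. For Tgfb3 it was 0.44 at 3 h and -2.19 at 48 h, a change of -2.62 on the log2 scale. For Tgfbr1 the values were 0.84 and -0.62 (change -1.46), for Smad3 0.43 and -0.98 (-1.41), for Smad6 0.33 and -0.65 (-0.98) and for Ski 0.26 and -0.98 (-1.24). The second Tgfbr1 probe was at 1.14 and 0.10, above 0 at both times. For Smad7 the values were 0.07 and -1.10 (-1.17), but 0.07 is below its scanner error of 0.204 and became -0.04 with arrays centred on their median. The 3 h values of Ski, Smad6 and Smad7 were above 0 only after the arrays were scaled. The 75th percentile was 556.4 on the 3 h high-dose array and 725.3 on the 3 h control array. None of these changes between the times was tested. The share of all genes that went from above 0 to below 0 was not computed. The count of 6 is therefore not shown to be particular to these genes. The median of all measured genes was -0.01 for the high dose against the control at 3 h and 0.05 at 48 h.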

How the results depend on the processing

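Each gene's 6 differences from the controls were recomputed under 8 alternatives. The value table and no filter on dim probes changed 0 of 60 calls at 2-fold, and no called value changed sign under any alternative run. Centring each array on its median shifted the all-gene median from -0.01 to -0.13 for the high dose at 3 h and from 0.01 to -0.12 between the controls. Under it Tgfb3 at the low dose against the 3 h control was 1.0 and just missed the call, Ski at 48 h against the 3 h control passed, and the 48 h control was above the 3 h control for 1 gene instead of 2. Among all genes called, the higher ones made up 40.7% for the high dose at 3 h against the 3 h control with median centring, beside 56.1% as reported, 46.8% beside 57.5% for the low dose against it, and 50.1% beside 64.8% between the controls. Quantile normalization gave 5 genes lower instead of 3 at 48 h against the 48 h control, adding Ski and Smad3 at -1.01 each, and the mean of all probes put Smad3 at -1.16 there. Normexp on median signals, chosen after the files were seen because they hold no mean signal, left 0 genes instead of 1 higher for the high dose at 3 h against the 48 h control, with Pmepa1 at 0.90. At a threshold of 1.5-fold, 6 genes were higher and 1 lower at the low dose against the 3 h control, 4 were higher against the 48 h control, 3 were higher at the high dose at 3 h against the 48 h control, 1 was higher and 7 lower at 48 h against the 48 h control, and 2 were lower for the high dose relative to the low dose. The share of all genes at 1.5-fold is not given, so these counts are not shown to be particular to the 10 genes. With each gene's other probe, also chosen after seeing the data, 1 gene was higher at 48 h against the 48 h control (Skil, 1.07). Against the 3 h control 2 were lower at 48 h, because the second Tgfb2 and Smad3 probes were below background on the 48 h high-dose array. The limma fit called 0 genes under all alternatives run except without the filter on dim probes, where it called 4, none of them among the 10. No paired analysis was possible because the labels give no replicate numbers and each group has 1 array; the limma fit, through its term for time, does compare high dose and control within each time. The single array per group limits the precision of every value.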

Other observations

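Several pathway genes differed between the 2 control arrays by more than 2-fold, 48 h minus 3 h: Postn at 2.78, Fst at -1.23, Tagln at -1.72 and Acta2, a contractile actin gene, at -2.52. For these a difference of a doxycycline array depends on the control it is set against. Acta2 after 3 h of the high dose was at -0.81 against the 3 h control and at 1.72 against the 48 h control, and Postn was at 0.89 and -1.89.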
